A study of Rattus norvegicus with 4 samples.

Results

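The aryl hydrocarbon receptor (AHR) pathway was examined in TSPCs, the tendon stem/progenitor cells of the rat, which grow out of tendon and resemble fibroblasts. It is represented by 9 genes out of the 32623 in the deposited table, chosen by symbol and each found in 1 row: the receptor Ahr, its partner Arnt, the repressor Ahrr, and the targets Cyp1a1, Cyp1a2, Cyp1b1, Tiparp, Nqo1 and Aldh3a1. The choice used no measured value of the deposited table, although results of these data were known when it was made. Bulk RNA sequencing covered 4 libraries in 2 groups of 2. The control group was TSPCs given DMSO, the solvent, and the other group was TSPCs given U0126, a small molecule that inhibits the MEK kinases upstream of ERK. The labels give tendon of Rattus norvegicus as the source and number the libraries as biological replicates. The sources used here do not give the animal, culture, strain, age, dose or exposure time, so a p-value covers no more than the spread among these 4 libraries.

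AHR is a transcription factor of the bHLH-PAS class that waits in the cytoplasm with HSP90 and the co-chaperone p23 (Ptges3). When a planar aromatic ligand binds, it moves to the nucleus, pairs with ARNT and binds the xenobiotic response element (XRE), whose core is GCGTG. Its best known targets are the CYP1 enzymes, which oxidise the ligands, and a pair of feedback genes, Ahrr and Tiparp. NQO1 and ALDH3A1 reduce quinones and oxidise aldehydes, and Nqo1 is also a target of the oxidative stress factor NRF2 through the antioxidant response element (ARE). Induction of CYP1A genes through AHR by U0126 itself has been described in hepatocyte cultures. That is background: with 1 compound and 1 solvent group, MEK inhibition and any other action of U0126 cannot be told apart here.

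In all, 6 genes of the pathway were higher with U0126: Ahrr, Tiparp, Cyp1b1, Nqo1, Aldh3a1 and Cyp1a1. The smallest of these rises, in Nqo1, was 4.11-fold, and Cyp1a1 went from 0 counts in both controls to 71 and 49. Ahr and Arnt, which encode the receptor pair, did not pass the test, and Cyp1a2 had 0 counts in all 4 libraries. In numbers, 8 of the 9 genes could be tested, 6 rose and 0 fell in the edgeR quasi-likelihood fit, at a p under 0.05 after Benjamini-Hochberg adjustment over 14023 genes. DESeq2 and limma-voom also gave 6 and 0, and 0 were lower at an unadjusted p under 0.05. Over all tested genes 19.9% were called, 8.41% as higher and 11.5% as lower, 2.86% were called and at least 2-fold higher, and 1.14% at least 4-fold. All 6 genes were at least 4-fold higher in the edgeR fit. With other settings or a library left out, Tiparp, Nqo1 and Cyp1b1 could fall just under 4-fold (lowest log2 fold change 1.88, 1.95 and 1.97). Cyp1a1 and Aldh3a1 passed the low-count filter through the U0126 libraries alone, so a call for them was likely from the start and supports nothing. Of the 6 genes above the filter in both controls, 4 rose.

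**Figure D1:**
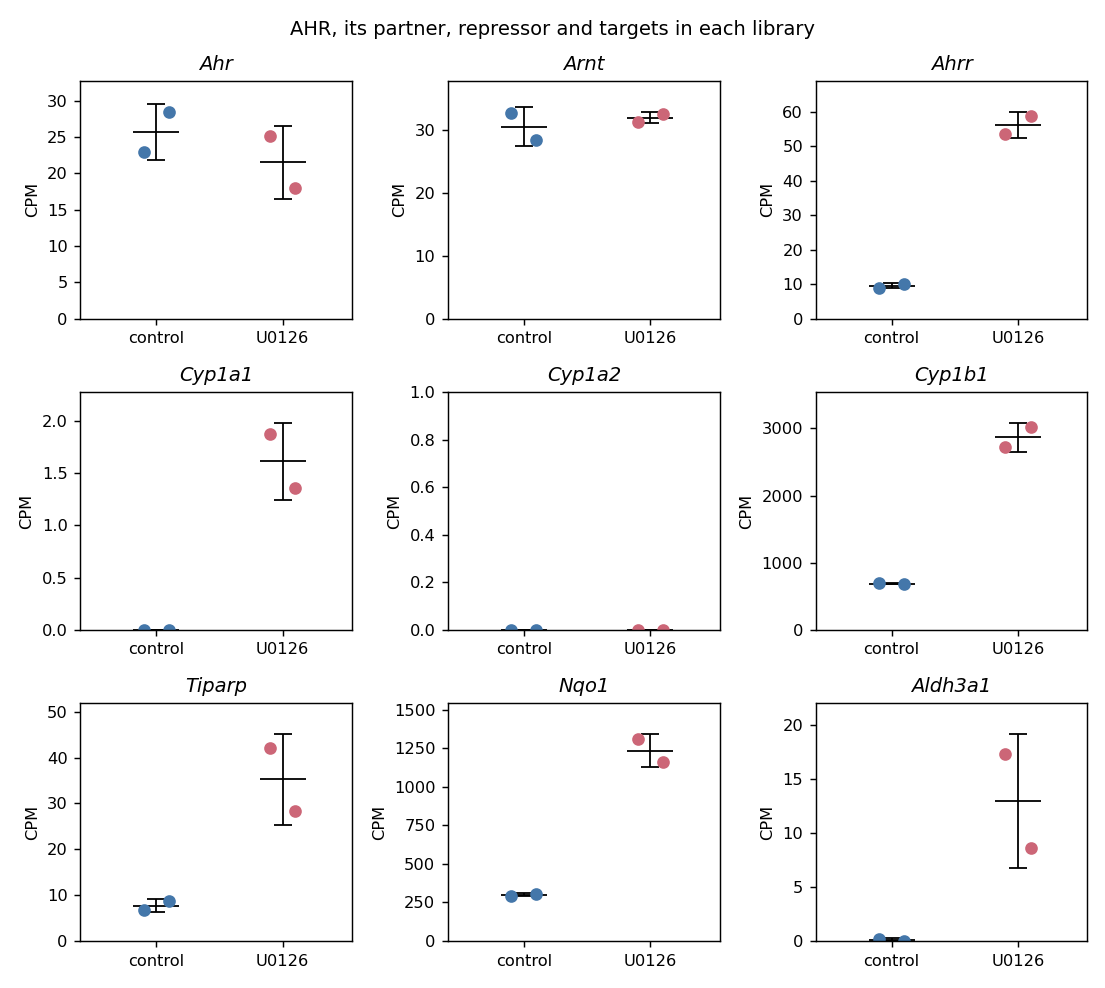
Level of each AHR pathway gene in every library, in CPM (counts scaled to library size by TMM) on an axis of its own that starts at 0; points are libraries, horizontal bars the group mean and error bars the SD (n = 2 per group). The U0126 points lie above both control points for Ahrr, Cyp1a1, Cyp1b1, Tiparp, Nqo1 and Aldh3a1, and the groups overlap for Ahr and Arnt.

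The promoters of 4 of the genes that rose are shown because the XRE is the site through which AHR acts. They are RefSeq sequences of the rat build GRCr8, running from 250 bases before to 50 bases from the annotated start, 5′ to 3′ on the strand of the gene, with each GCGTG or its reverse complement CACGC in capitals. The windows are chr1:30821969-30822268 (plus strand) for Ahrr, chr6:21094315-21094614 (plus) for Cyp1b1, chr2:152063519-152063818 (plus) for Tiparp and chr19:52220218-52220517 (minus) for Nqo1. Positions differ between this build and rn6, which is used for the genes below. The strand also differs for Cyp1b1 (minus in rn6) and Nqo1 (plus in rn6).
Ahrr: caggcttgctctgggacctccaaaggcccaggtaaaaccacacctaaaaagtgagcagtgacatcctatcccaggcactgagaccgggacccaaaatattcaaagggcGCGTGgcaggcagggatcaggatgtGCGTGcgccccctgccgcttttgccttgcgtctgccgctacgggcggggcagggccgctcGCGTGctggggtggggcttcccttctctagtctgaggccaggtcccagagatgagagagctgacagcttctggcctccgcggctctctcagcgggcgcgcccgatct
Cyp1b1: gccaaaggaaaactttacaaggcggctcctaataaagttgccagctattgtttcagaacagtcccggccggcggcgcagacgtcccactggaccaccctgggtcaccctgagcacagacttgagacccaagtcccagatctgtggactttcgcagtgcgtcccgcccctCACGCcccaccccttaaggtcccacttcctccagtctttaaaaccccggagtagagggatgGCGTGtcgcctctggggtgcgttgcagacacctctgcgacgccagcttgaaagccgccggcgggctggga
Tiparp: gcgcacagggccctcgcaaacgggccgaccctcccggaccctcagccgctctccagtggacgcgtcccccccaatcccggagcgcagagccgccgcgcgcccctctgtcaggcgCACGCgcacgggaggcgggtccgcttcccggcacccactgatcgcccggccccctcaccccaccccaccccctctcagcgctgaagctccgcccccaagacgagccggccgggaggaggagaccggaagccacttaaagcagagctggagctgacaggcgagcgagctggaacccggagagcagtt
Nqo1: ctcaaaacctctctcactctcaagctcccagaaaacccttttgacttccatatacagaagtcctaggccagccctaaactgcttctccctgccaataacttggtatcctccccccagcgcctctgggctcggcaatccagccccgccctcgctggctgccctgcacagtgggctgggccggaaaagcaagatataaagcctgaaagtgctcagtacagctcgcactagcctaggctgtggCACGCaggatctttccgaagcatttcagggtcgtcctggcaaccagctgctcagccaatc

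RefSeq windows were matched by symbol for 7 of the 9 genes, all but Cyp1a1 and Aldh3a1, and 5 of the 7 held the core. Ahrr had 3 copies, starting 142, 117 and 57 bases before the start, all on the gene's strand. Cyp1b1 had 2, at 20 bases before the start and, on the opposite strand, at 81 bases. Tiparp and Nqo1 each had 1 on the opposite strand, 136 and 10 bases before the start, and Arnt, which did not change detectably, had 1 at 42 bases. No GCGTG on either strand lay in the windows of Ahr and Cyp1a2. So short a motif is common: it was in 29.7% of 33469 windows of the genome and in 50.6% of 9547 windows of tested genes. The longer form TNGCGTG, which contains the core, was in 7.96% of the tested genes' windows, and here in Ahrr (59 bases before the start) and Cyp1b1 (22 bases). The ARE, searched as TGACNNNGC on both strands, was in 14.7% of them and here only in Arnt, at 2 places. A match is a string of letters, not evidence of binding, and sites outside these windows were not searched.

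**Figure D2:**
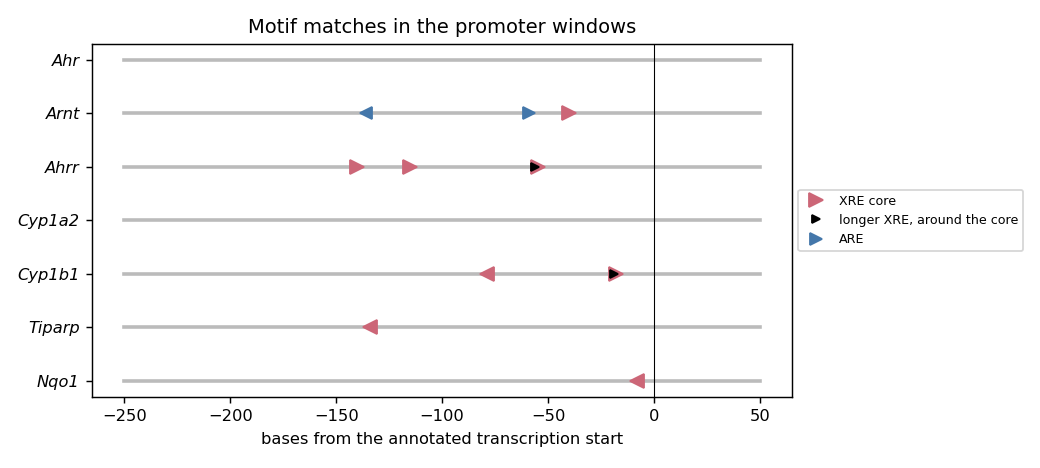
Matches to the XRE core (GCGTG), the longer XRE form and the ARE in the promoter windows of 7 AHR pathway genes, by distance in bases from the annotated start; arrowheads point right for the gene's strand and left for the opposite strand. Ahrr holds 3 cores and Cyp1b1 holds 2, and the windows of Ahr and Cyp1a2 hold no match.

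The libraries held between 36888913 and 42785190 counts. Mitochondrially encoded genes took 3.48% and 2.98% of them in the controls against 5.64% and 4.82% with U0126, and the part of this in the AHR results was not tested. Replicates differed beyond counting error, the U0126 pair more than the control pair (chi-square per gene 44.0 against 14.9). Type I collagen (Col1a1) was at 20526 to 23943 CPM in the 4 libraries, and Scx, the tendon transcription factor, rose from 12.2 and 11.8 CPM to 20.5 and 20.4 CPM. Of 11 tendon fibroblast and progenitor markers 10 were tested, 4 rose (Scx, Dcn, Fmod and Nt5e) and 2 fell (Tnc and Thy1). Tnc went from 3106 and 3562 CPM in the controls to 1041 and 1247 CPM with U0126. Thy1 went from 1575 and 1428 CPM to 902 and 905 CPM. Tnmd, which marks mature tendon cells, was almost absent, with 0 to 5 counts a library. Alb, Ttr and Cyp2e1, which mark hepatocytes, the classic AHR-responsive cell, were at 0 in all 4 libraries, as were Ptprc (leukocytes), Cdh5 (endothelium), Epcam, Cdh1, Krt14 and Krt5 (epithelium). Other markers on those lists held counts. The epithelial keratin Krt8 had 104 to 132 counts a library, the endothelial receptor Tek 6 to 31 and hepatocyte Apoa1 0 to 10. The monocyte receptor Cd14 had 389 to 517 counts (10.7 to 12.3 CPM), a level near that of Scx in the controls. The endothelial Vwf and Kdr had 9 and 2 counts in U0126 replicate 1 and 0 elsewhere. Some markers of 4 other cell types moved with U0126, where 19.9% of all tested genes were called. The summed level of 5 skeletal muscle markers went from 12.4 and 9.60 CPM in the controls to 3.37 and 3.65 CPM, and 3 of the 3 tested fell. One of them, Myod1, cleared the low-count filter only by its control libraries, so its call was likely from the start. Myog, on the same list but untested, moved upward, from 6 and 0 control counts to 25 and 8 U0126 counts. The 4 pericyte and smooth muscle markers summed to 756 and 912 CPM in the controls and 478 and 642 CPM with U0126, and 2 of the 3 tested fell (Myh11 and Mcam). Among 6 macrophage and leukocyte markers, 1 of the 4 tested fell (Adgre1), and their sum was 13.1 to 14.1 CPM in the controls and 11.2 to 11.5 CPM with U0126. Like Myod1, Adgre1 cleared the filter only by its control libraries. S100b, a Schwann cell marker, rose from 12.7 and 7.17 CPM to 41.0 and 24.6 CPM, while Sox10, another, was at 0 throughout. The part of these cells in the AHR results was not tested, and in bulk RNA more cells of a type and more RNA per cell cannot be told apart.

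Ahr (ENSRNOG00000004342, chromosome 6, 54963990 to 55001464, minus strand, rn6) was at 22.9 and 28.5 CPM in the controls and 25.1 and 18.0 CPM with U0126. The groups overlapped, with the lowest and the highest library one from each group. Its log2 fold change was -0.25 ± 0.19 (SE; edgeR adjusted p = 0.384). Without U0126 replicate 1 it was called as lower (log2 fold change -0.51, edgeR adjusted p = 0.0366), and without U0126 replicate 2 the value was -0.045. Over all 12 alternatives the adjusted p ran from 0.0366 to 0.883. Arnt, the nuclear partner that AHR shares with the hypoxia factors (chromosome 2, 196594303 to 196651179, plus strand, rn6), was at 32.7 and 28.3 CPM in the controls and 31.3 and 32.6 CPM with U0126. Both U0126 values lay between the control values, and the log2 fold change was 0.066 ± 0.11 (edgeR adjusted p = 0.727).

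Both feedback genes rose. Ahrr encodes a repressor that competes with AHR for ARNT and for the XRE (ENSRNOG00000014721, chromosome 1, 31603297 to 31698329, plus strand, rn6). It was at 8.98 and 10.1 CPM in the controls and 53.6 and 58.8 CPM with U0126. The replicates lay close together and the groups far apart, a 5.90-fold rise (log2 fold change 2.56 ± 0.12 SE, edgeR adjusted p = 1.07e-04). By its p-value Ahrr was in place 13 among the 14023 genes. Tiparp encodes an enzyme that attaches single ADP-ribose units to AHR and dampens it (ENSRNOG00000011238, chromosome 2, 157316266 to 157341469, plus strand, rn6). Its level was 6.71 and 8.64 CPM in the controls against 42.2 and 28.3 CPM with U0126. Both U0126 libraries were above both controls, and they differed from each other 1.49-fold, more than those of Ahrr (1.10-fold). The rise was 4.59-fold (log2 fold change 2.20 ± 0.22 SE, edgeR adjusted p = 9.51e-04).

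The CYP1 family, haem enzymes that oxidise aromatic ligands of AHR, covered the whole range of levels. Cyp1b1, its main member in cells of mesenchymal origin (ENSRNOG00000040287, chromosome 6, 2307808 to 2316722, minus strand, rn6), was at 696 and 681 CPM in the controls. With U0126 it reached 2718 and 3017 CPM. Both U0126 libraries stood well above both controls, and the rise was 4.16-fold (log2 fold change 2.06 ± 0.098 SE, edgeR adjusted p = 1.07e-04). Per length, Cyp1b1 went from 424 and 438 TPM to 1634 and 1866 TPM, from places 363 and 356 among all genes of a control library to places 76 and 69 with U0126. Of all counts it took 0.0710% and 0.0693% in the controls, against 0.267% and 0.296% with U0126.

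Cyp1a1, the inducible enzyme by which AHR activity is commonly read (ENSRNOG00000019500, chromosome 8, 62472095 to 62478147, plus strand, rn6), behaved differently in level. It had 0 counts in both controls, 71 in U0126 replicate 1 and 49 in U0126 replicate 2, or 1.87 and 1.35 CPM. Both U0126 libraries thus held reads of a gene that was empty in the controls. A control library with 0 counts allows up to 0.0756 or 0.0689 CPM. Cyp1a1 passed the low-count filter through the U0126 libraries alone, so its call was likely from the start and supports nothing. Set against a floor of 3 counts over both controls, the level with U0126 was at least 44.9-fold higher (edgeR adjusted p = 0.00222). Even so, Cyp1a1 stayed low: its 1.21 and 0.888 TPM were far below the TPM of Cyp1b1 in the same libraries. Cyp1a2, the liver form of the family, lies 13793 bases away on the opposite strand (ENSRNOG00000016173, chromosome 8, 62451329 to 62458301, minus strand, rn6). It had 0 counts in every library, which allows up to 0.0829 CPM in the shallowest. So the Cyp1a cluster gave counts for Cyp1a1 alone, and for it in the U0126 libraries alone.

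The remaining targets, a pair of detoxifying enzymes, rose from different starting points. Nqo1, the quinone reductase (ENSRNOG00000012772, chromosome 19, 38422164 to 38437180, plus strand, rn6), was already abundant at 293 and 306 CPM in the controls and was at 1309 and 1159 CPM with U0126. The groups were far apart relative to either pair, a 4.11-fold rise (log2 fold change 2.04 ± 0.10 SE, edgeR adjusted p = 1.14e-04). By p-value it was in place 21 of all tested genes, after Ahrr and Cyp1b1 (place 17). Aldh3a1, an aldehyde dehydrogenase induced by AHR ligands in rat liver (ENSRNOG00000002331, chromosome 10, 47490153 to 47499876, plus strand, rn6), was near absent in the controls. It had 8 and 0 counts there, and 657 and 311 with U0126, or 17.3 and 8.59 CPM. The U0126 libraries were far above both controls but differed from each other 2.02-fold. The ratio of the summed counts was 136 (95% exact interval 68.6 to 315, counting error only), and the fitted log2 fold change was 7.02 ± 0.70 (SE, edgeR adjusted p = 8.92e-04). Its size rested on the control library that held the 8 counts. Without control replicate 1 the fitted value was 11.99, and without control replicate 2 it was 5.98. Leaving out U0126 replicate 1 or 2 gave 6.43 and 7.43. Like Cyp1a1, Aldh3a1 passed the low-count filter through the U0126 libraries alone, so its call was likely from the start and supports nothing.

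**Figure D3:**
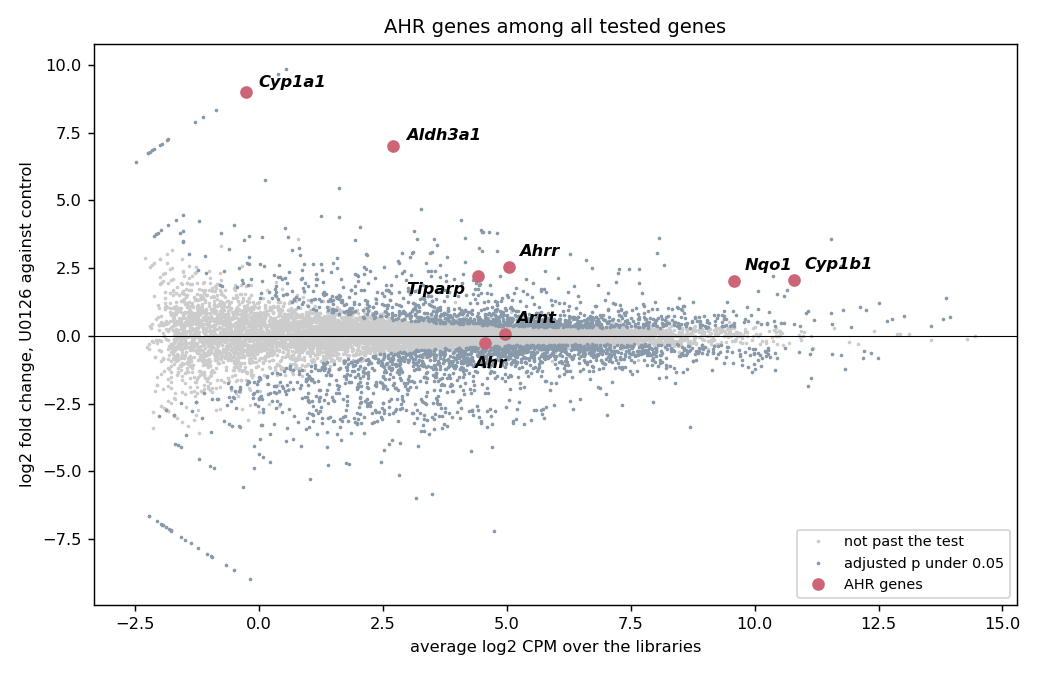
Log2 fold change of U0126 against control and average log2 CPM for all 14023 tested genes (points; darker where the adjusted p is under 0.05), with the 8 tested AHR pathway genes marked. Ahr and Arnt lie near 0, Ahrr, Tiparp, Nqo1 and Cyp1b1 between 2.04 and 2.56, and Aldh3a1 and Cyp1a1, whose fitted values depend on how counts near 0 are handled, at 7.02 and 8.99.

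The 6 genes that rose were called in each of the 12 alternatives, and Ahr was the only addition, without U0126 replicate 1. Cyp1a1 and Aldh3a1 passed the low-count filter through the U0126 libraries alone. Their calls, and their U0126 libraries lying above the controls, were thus likely from the start and add nothing. For Ahrr, Cyp1b1 and Nqo1 the log2 fold change stayed within 1.95 to 2.64 over the 12 alternatives, and for Tiparp within 1.88 to 2.45. All 6 had both U0126 libraries above both controls, as had 31.8% of all tested genes, and none of the 8 had both below both controls, as had 31% of all. The libraries did not order the genes alike. U0126 replicate 1 was the higher of its pair for Tiparp, Nqo1, Aldh3a1, Cyp1a1 and Ahr, and U0126 replicate 2 for Ahrr, Cyp1b1 and Arnt.

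**Figure D4:**
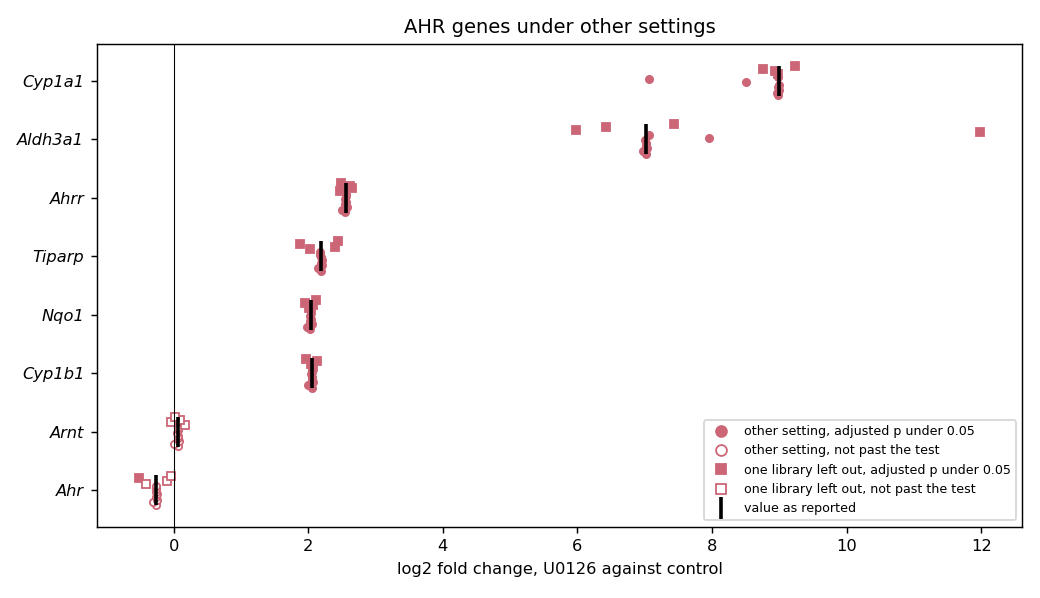
Log2 fold change of the 8 tested AHR pathway genes as reported (bar) and in the 12 alternatives (circles for other settings, squares for one library left out; filled where the adjusted p is under 0.05). The 6 genes that rose are filled throughout, and Aldh3a1 ranges from 5.98 to 11.99. Calls of Cyp1a1 and Aldh3a1 were likely from the start.

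Per length, the order of the genes changed with treatment. In the controls it ran Cyp1b1 (431 ± 10.1 TPM, mean ± SD, n = 2), Nqo1 (342 ± 19.7), Arnt (23.0 ± 1.74), Ahr (8.99 ± 1.60), Tiparp (5.86 ± 1.19) and Ahrr (3.64 ± 0.388), followed by Aldh3a1 and the empty Cyp1a1 and Cyp1a2. Neighbours in that order did not overlap, apart from the last 3. With U0126, Cyp1b1 (1750 ± 164 TPM) and Nqo1 (1347 ± 104) stayed on top, and Ahr (7.20 ± 1.61) dropped to the seventh place, below Tiparp (25.7 ± 6.98), Ahrr (20.6 ± 1.53) and Aldh3a1 (12.8 ± 5.99). Tiparp and Arnt (23.1 ± 0.825) overlapped there and could not be ordered. The receptor transcript thus outranked both feedback transcripts in the controls and was below both with U0126.

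Genes around the pathway were read from 6 lists, which were chosen with earlier results of these data known. The counts of each list stand beside 19.9% called over all tested genes, 8.41% as higher and 11.5% as lower. Whether a list departs from those shares was not tested. The AHR complex and its coregulators changed little. Of 15 tested genes 1 rose and 0 fell by edgeR (0 and 0 by DESeq2, 1 and 0 by limma-voom), with 2 higher and 0 lower at an unadjusted p under 0.05, and the median log2 fold change was 0.10 against 0.015 over all tested genes. Among the chaperones of the resting receptor, Hsp90ab1 was at 855 and 874 CPM in the controls and 844 and 913 CPM with U0126. The groups overlapped. Hsp90aa1, at 68.0 and 68.3 against 85.3 and 44.9 CPM, was called lower without U0126 replicate 1 and higher without U0126 replicate 2, and Ptges3 was called lower without U0126 replicate 1. These 3 genes were named after their values were seen. The single riser was the coactivator Ncoa1, 1.36-fold (14.0 ± 1.00 to 19.1 ± 0.439 CPM, edgeR adjusted p = 0.0472). That call was lost in 6 of 12 alternatives, among them leaving out either control (0.351 and 0.219), and the adjusted p went down to 0.0303.

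Other genes reported to respond to AHR went both ways. Of 15 tested, 3 rose and 3 fell by edgeR, and the median log2 fold change was 0.28. At an unadjusted p under 0.05 in the edgeR fit, 7 were higher and 3 lower. Xdh, xanthine dehydrogenase of purine breakdown, was at 40.8 and 33.9 CPM in the controls and 125 and 103 CPM with U0126. Its groups were well separated (3.05-fold, edgeR adjusted p = 4.81e-04), and it was called in all 12 alternatives. Hes1, a Notch-responsive repressor, rose 1.68-fold (28.4 ± 1.53 to 47.7 ± 3.94 CPM, edgeR adjusted p = 0.00410). Serpinb2, an inhibitor of plasminogen activators, fell from 74 counts over the controls to 0 with U0126. That is at least 22.0-fold lower against a floor of 3 counts (edgeR adjusted p = 0.00595). Serpinb2 passed the low-count filter through the control libraries alone, so its call was likely from the start and supports nothing. The calls of Hes1 and Serpinb2 were lost without control replicate 1 (edgeR adjusted p = 0.0708 and 0.0591). Values already seen led to naming the other called genes, the cytokine signalling inhibitor Socs2 (4.26-fold higher), the P450 Cyp2s1 (2.20-fold lower) and the prostaglandin synthase Ptgs2, which went from 149 ± 18.7 to 29.8 ± 21.1 CPM. Without control replicate 1 only Xdh passed in this list, and without U0126 replicate 2 the count was 10. Nfe2l2, which encodes NRF2, did not pass (log2 fold change 0.28 ± 0.086 SE, edgeR adjusted p = 0.0643, named after its values were seen), but it was called without U0126 replicate 2 (0.0331).

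Because Nqo1 also answers to NRF2, other NRF2 targets were read beside it. Of 12 tested, 4 rose and 0 fell by edgeR (3 and 0 by DESeq2, 4 and 0 by limma-voom, 0 lower at an unadjusted p under 0.05), and the median log2 fold change was 0.12. Osgin1, an oxidative stress-induced growth inhibitor, was at 2.34 and 3.22 CPM in the controls and 18.8 and 17.2 CPM with U0126. It rose 6.46-fold (edgeR adjusted p = 2.71e-04) and was called in all 12 alternatives. The others moved less: haem oxygenase Hmox1 and malic enzyme Me1 each rose 1.41-fold, and Srxn1, sulfiredoxin, named after its values were seen, 1.65-fold. These 3 calls were lost without either control, and that of Srxn1 also under DESeq2 (adjusted p = 0.0746). The glutathione synthesis genes Gclc and Gclm, also named after their values were seen, had log2 fold changes of 0.22 ± 0.13 and -0.076 ± 0.15 (SE). Txnrd1, another target on the list named in the same way, had -0.19 ± 0.094 (SE). None of them passed. Without U0126 replicate 2, Gclc was called higher (log2 fold change 0.38) and Txnrd1 lower (-0.28).

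Of the enzymes that make or use kynurenine, a tryptophan product that can activate AHR, few were expressed. Ido1 and Tdo2, which open the pathway, had 0 counts in all 4 libraries, and 5 of 12 genes were tested. None rose and 1 fell by edgeR, with 0 higher and 1 lower at an unadjusted p under 0.05, 0 and 0 called by DESeq2 and 0 and 1 by limma-voom. The gene that fell was Qprt, which leads to NAD synthesis, 1.95-fold from 3.33 ± 0.291 to 1.71 ± 0.192 CPM (edgeR adjusted p = 0.0360). It lost its call without either control (0.169 and 0.286) and under DESeq2 (0.0927).

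Among 10 tested bHLH-PAS factors, the protein class of AHR and ARNT, 3 fell and 0 rose by edgeR (3 and 0 by DESeq2, 4 and 0 by limma-voom, with 2 higher at an unadjusted p under 0.05). Their median log2 fold change was -0.22. Npas4, an activity-induced factor, was at 10.9 and 10.3 CPM in the controls and 1.98 and 3.56 CPM with U0126, and it was called as lower in all 12 alternatives (3.83-fold, edgeR adjusted p = 0.00344). Arntl2 and Npas2, clock factors, fell 2.33-fold and 2.40-fold. The Arntl2 call was lost without control replicate 2 (edgeR adjusted p = 0.0676), and Npas2 lost its call without either control or U0126 replicate 1 and under DESeq2, up to 0.263. Arnt2, a relative of Arnt named after its values were seen, was at 46.0 and 55.0 CPM in the controls and 21.7 and 37.8 CPM with U0126. It did not pass in edgeR (adjusted p = 0.0671) and was called lower by DESeq2 (0.00430) and limma-voom (0.0462). Hif1a, which shares ARNT with AHR, was at 145 and 135 CPM in the controls and 121 and 131 CPM with U0126 (log2 fold change -0.16 ± 0.093 SE, edgeR adjusted p = 0.289, named after its values were seen).

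The electron supply and haem synthesis on which CYP1 enzymes depend did not follow Cyp1b1 in size. Of 12 tested genes 1 rose and 1 fell, near the 19.9% called over all tested genes, and the median log2 fold change was 0.14. Cyb5r3, cytochrome b5 reductase, rose 1.39-fold (452 ± 30.8 to 629 ± 7.49 CPM, edgeR adjusted p = 0.0125). Por, the reductase that passes electrons to P450 enzymes, fell 1.27-fold, from 80.2 and 76.3 CPM to 59.3 and 63.8 CPM (edgeR adjusted p = 0.0400). Both calls were lost without either control (0.0743 to 0.311).

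**Figure D5:**
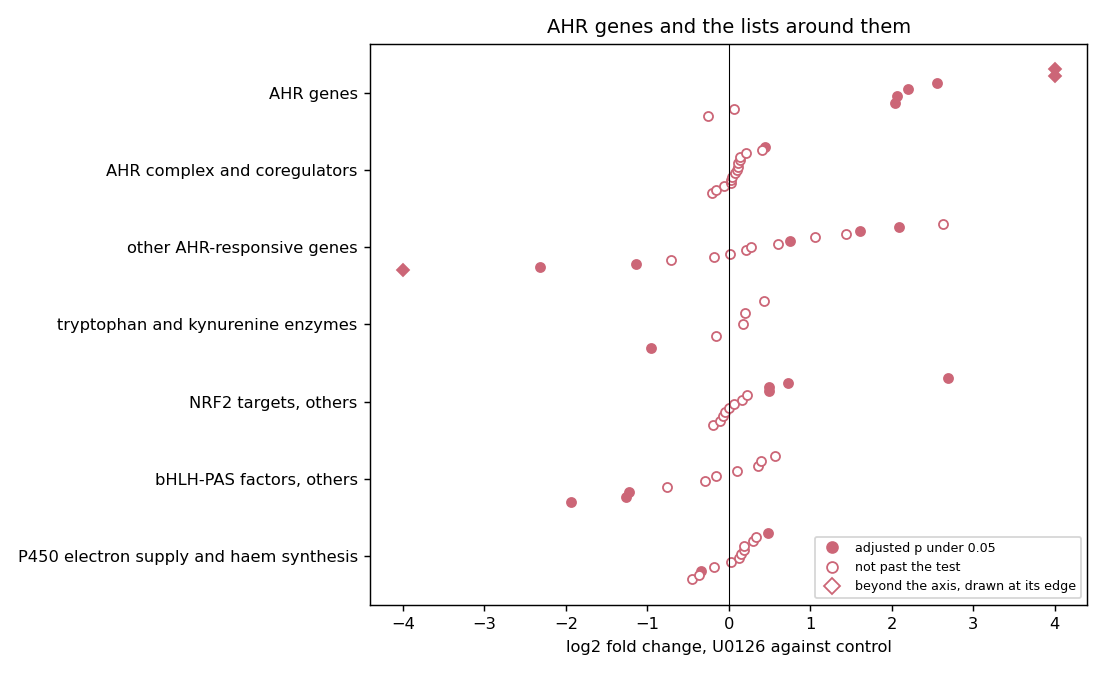
Log2 fold change of U0126 against control for each tested AHR pathway gene and each tested gene of the 6 lists around it (one point per gene, filled where the adjusted p is under 0.05; diamonds lie beyond the axis). In the AHR row 6 of 8 points are filled and above 2, and the complex and coregulator row holds 1 filled point among 15. For Cyp1a1 and Aldh3a1 a filled point was likely from the start.

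The genes with the profiles most like 3 pathway genes were found by Euclidean distance between centred log2 CPM profiles over the 4 libraries, among 14022 genes. With so few libraries this likeness is a description only. Nearest to Cyp1b1 were RGD1306556 (distance 0.108), the serotonin receptor gene Htr7 (0.122) and Igfbp2, an IGF binding protein (0.194). Igfbp2 was at 449 and 481 CPM in the controls and 2084 and 2267 CPM with U0126. Nearest to Cyp1a1 was Slc9a3, a sodium-proton exchanger (0.0338), which was empty in both controls and had 73 and 49 counts with U0126, followed by Blnk (0.667) and AABR07039648.1 (0.685). Nearest to Ahr were Lmbrd2 (0.0460), LOC102547219 (0.0599) and Hoxa11-as (0.0656).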

How the data were processed

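RNA was extracted with Trizol and sequenced from 4 libraries, per the labels' protocols; their coordinates follow rn6, per the submitters' processing notes. A single table was deposited by the authors, with raw counts, TPM and FPKM values per Ensembl gene, per the file headers. The deposited counts were whole numbers and entered every test. The deposited TPM values, scaled by length and library, were used to order genes by level, and the deposited FPKM values served as the alternative for that order. Neither aligner, counter, strand setting nor annotation release is given in the sources used here. A shared letter and number tied each column to a sample description, with 0 columns unmatched.

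Genes passing edgeR's filterByExpr (minimum count 10, minimum total 15) were scaled by TMM and tested with the quasi-likelihood F test with Benjamini-Hochberg adjustment and a threshold of 0.05 (R 4.3.3, edgeR 4.0.16, limma 3.58.1, DESeq2 1.42.0). CPM values use effective library sizes. Standard errors are the absolute log2 fold change over the square root of F. Floors take 3 counts, and the interval of a ratio is an exact 95% interval. The script was tested on simulated data. No gene in the table overlapped a member.

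The AHR genes and the lists were chosen with earlier results of these data known. The named genes were all 9 AHR genes, up to 3 called genes of smallest adjusted p per list (or the most abundant tested one), and the 3 nearest profiles to Ahr, Cyp1a1 and Cyp1b1. Ugt1a6 and Npas3, listed members, were not found under their symbols, and some listed genes are not reported here. Alternatives covered scaling, filtering, tool, replicate block and leaving out each library.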

Additional observations from a re-analysis of the deposited data

How the results depend on the processing

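The count of called AHR genes was 6 in 11 of 12 alternatives and 7 without U0126 replicate 1. That count includes Cyp1a1 and Aldh3a1, whose calls were likely from the start. For Arnt, not called in any setting, the log2 fold change turned to -0.035 without control replicate 2, and leaving out other single libraries gave up to 0.17. The count of all called genes, 2792, ranged from 899 to 4644 with one library left out (899 and 913 without a control, 4644 without U0126 replicate 2). Over the same 4 fits the counts ran from 0 to 3 for the AHR complex, 1 to 10 for other AHR-responsive genes, 0 to 1 for kynurenine enzymes, 1 to 6 for NRF2 targets, 1 to 5 for bHLH-PAS factors and 0 to 3 for electron supply and haem synthesis; the cause was not tested. The complex list went from 1 to 0 with library totals alone, no filter and DESeq2, the kynurenine list from 1 to 0 under DESeq2, and the electron supply list from 2 to 4 with library totals alone.

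The replicate numbers are not stated to pair the libraries, and 2 pairs cannot test it (correlation over 14023 genes of the deviations of same-numbered libraries, -0.031). With a replicate block 2371 genes and 6 AHR genes were called, and the complex, kynurenine and electron supply lists had 0, 0 and 1 called. Among genes named in the report the block ended the calls of Ncoa1 (edgeR adjusted p = 0.0693), Qprt (0.0651), Srxn1 (0.0591), Npas2 (0.0630) and Por (0.0695), and Arnt2 was called lower (0.0143). FPKM in place of TPM kept all 9 AHR genes in their places in both groups. Depth limits Cyp1a1, Cyp1a2 and Aldh3a1, which had a library at 0 counts in the controls, where up to 0.0689 or 0.0756 CPM is allowed.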

Other observations

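The neighbours of the AHR genes in the genome were read after the values had been seen. Within 200 kb of the 9 genes lay 68 other genes, of which 41 were tested, 5 were higher and 4 lower with U0126 (22% called, against 19.9% of all tested genes). The called genes include Slc9a3, described below, and Slc47a1, which had 57 and 35 control counts against 0 and 8 with U0126. Each passed the low-count filter through the libraries of its higher group alone, so those calls were likely from the start. Slc9a3, the gene whose profile was nearest to that of Cyp1a1, lies 36.0 kb from Ahrr on the opposite strand (chromosome 1, 31734327 to 31777070, rn6). Its 0, 0, 73 and 49 counts give a level at least 45.6-fold higher with U0126 than a floor of 3 counts over the controls. It was picked for that profile and passed the low-count filter through the U0126 libraries alone, so this is a description with no test. Between it and Ahrr lies Exoc3, an exocyst subunit, which rose 1.33-fold (45.9 and 44.0 CPM to 61.2 and 58.7 CPM, edgeR adjusted p = 0.0203, lost without either control at 0.170 and 0.240). Beyond Slc9a3, Cep72, a centrosome protein gene 137 kb from Ahrr, fell 5.54-fold (6.10 and 7.51 CPM to 1.34 and 1.10 CPM). Sdha and Pdcd6, on the other side of Ahrr, had log2 fold changes of 0.020 and 0.18 and did not pass.

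Relatives of the targets, also chosen after their values were seen, went different ways. Aldh3a2, 25.6 kb from Aldh3a1, was at 55.4 and 57.4 CPM in the controls and 58.2 and 57.9 CPM with U0126, while Aldh3b1 fell 1.79-fold (edgeR adjusted p = 0.0321, lost without either control at 0.0768 and 0.307). Nqo2, the paralogue of Nqo1, was at 11.2 and 9.17 CPM in the controls and 8.49 and 9.64 CPM with U0126 (log2 fold change -0.17 ± 0.17 SE, edgeR adjusted p = 0.531). Ugt1a5, from the glucuronosyltransferase family of the AHR target Ugt1a6, rose 1.76-fold (470 and 521 counts to 928 and 634 counts, edgeR adjusted p = 0.0193, lost without either control at 0.136 and 0.138). The Ugt1a5 row spans 95161157 to 95302822 on chromosome 9 (rn6), and Ugt1a6 had no row under its symbol. Whether reads of Ugt1a6 were counted in the Ugt1a5 row was not tested, so Ugt1a6 cannot be called unmeasured or unchanged. Whether the fold changes of these relatives differ from those of the AHR genes was not tested.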
